A study of Mus musculus with 3 samples.

Results

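The 6 conventional actin genes of the mouse were Actb and Actg1, which encode the nonmuscle β- and γ-actins, Acta1 and Actc1, which encode the sarcomeric actins of skeletal and cardiac muscle, and Acta2 and Actg2, which encode the smooth muscle actins of vessels and gut. Their regions were all those in the odd-pool and even-pool lists of a PAM ChIRP-seq experiment that overlapped the annotated span of a member gene by at least 1 bp (GENCODE M1, mm9). By this rule 13 of 2112 odd regions (0.616%) and 5 of 345 even regions (1.45%) lay in an actin gene. The genes were chosen by the place and score of these same regions, so the number, place and score of the regions are given as a description, with no test.

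PAM is a long noncoding RNA made from a super-enhancer, and ChIRP-seq pulls down the chromatin that a crosslinked RNA touches with biotinylated antisense oligonucleotides. The cells were ASCs, activated muscle stem cells, cultured after sorting from hindlimb muscle of Tg:Pax7-nGFP mice, in which a nuclear GFP driven by Pax7 marks the stem cells, and no treatment was given. The odd and the even pool differed in the set of probes, and no other difference in their preparation is stated. Equal numbers of cells were fixed with 1% glutaraldehyde for 10 min, and 100 pmol of probes per pool was hybridized at 37 °C for 4 h. Each pool had 1 library of genomic DNA, and the labels do not say how many mice contributed. The input library was not analysed here.

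Actin is the monomer of the thin filament in muscle and of the microfilaments of every cell. A stem cell that leaves quiescence relies on the nonmuscle actins for its shape and movement, while the sarcomeric actins belong to the contractile machinery of the differentiated fibre. Actc1 precedes Acta1 in the embryonic and regenerating muscle of rodents, and Acta2 is widely used as a marker of smooth muscle and of contractile fibroblasts. The coding sequences of the family are very alike although the genes lie on separate chromosomes, and processed copies of the nonmuscle actins are scattered over mammalian genomes.

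Regions of both pools were found in Actb, Acta1 and Acta2, odd regions alone in Actc1, and none in Actg1 or Actg2. Thus 4 of 6 actin genes held an odd region, against 6.46% of the 22380 annotated protein-coding genes, 3 of 6 held an even region, against 0.996%, and the same 3 held a region of each pool, against 0.697%. Each region carries a score, and the lowest score in both lists was 4. What the score measures is not given in the sources used here, and whether both lists use 1 scale is unknown, so scores are compared within a list only. The median score was 17 over the 13 actin regions of the odd list and 6 over the whole list, and 17 over the 5 actin regions of the even list and 5 over that whole list. The actin medians rested on the genes with the most regions: without Acta2 the odd median was 35, and without Actb the even median was 10.5. With only the top region of each gene they were 28.5 and 11. Odd regions were 254 bp wide and even regions 248 bp throughout.

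**Figure D1:**
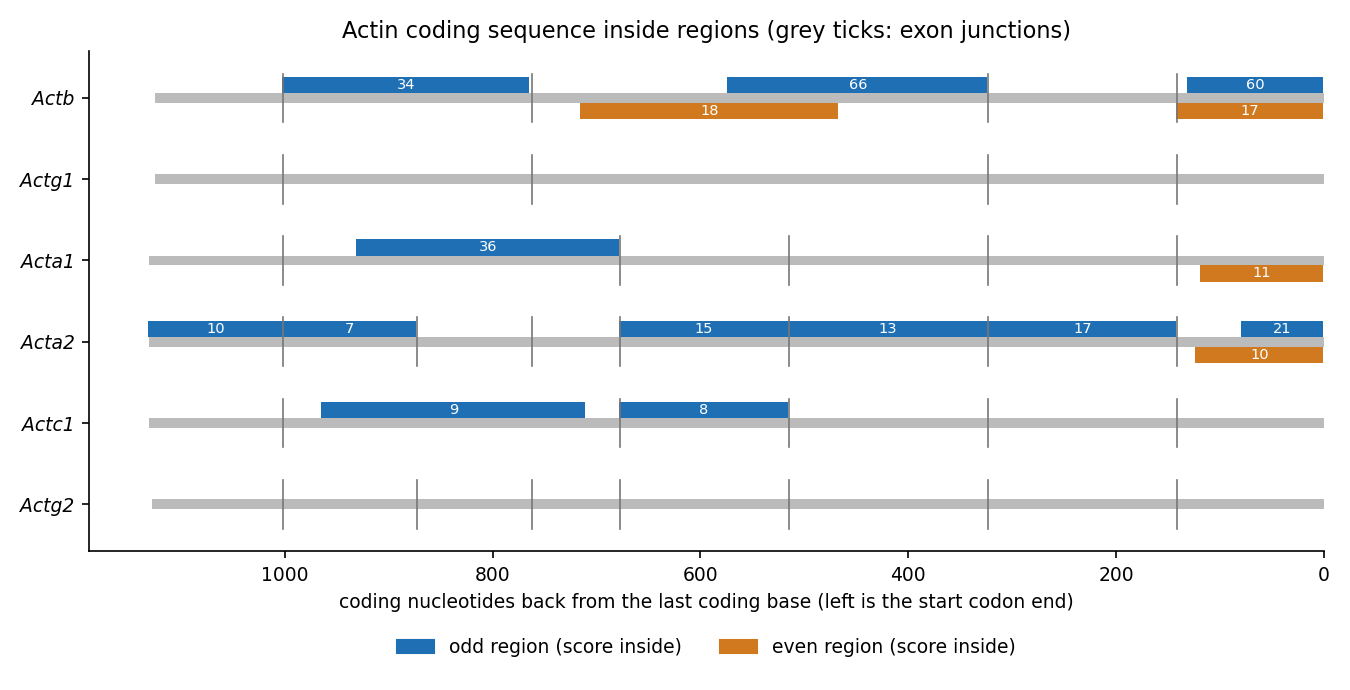
Coding sequence of each actin gene drawn by its distance in nucleotides from the last coding base, with the start codon end to the left, grey ticks at exon junctions, and the parts inside odd (blue) and even (orange) regions with their scores. Odd regions cover coding sequence in Actb, Acta1, Acta2 and Actc1. Only coding bases are drawn, so the inner bars of Acta2 end at exon junctions although the regions there run into introns.

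The probes that chose the chromatin were 20 nucleotides long and are printed because they decide what is pulled down. How they were divided between the pools was not used here.
Probe 1: gccagaaagaatggatgact
Probe 2: gcattttcagtgggatcaca
Probe 3: acctgccatctgctatcaaa
Probe 4: tcttcacaaaccctcatgat
Probe 5: acaagtacttcagctccatg
Probe 6: gttctgatatgtaagctcct
The longest exact run that any probe shared with an actin gene, on either strand, was 12 nucleotides, between probe 2 and Actg2, a gene without a region. Within the actin regions themselves the longest run was 9 nucleotides in the odd list and 8 in the even list. Over all regions the longest run reached 13 nucleotides in each list. The amount of sequence searched differed between these sets, and Actg2 has the longest span of the 6 genes (23361 bp). The runs were not set against a baseline for length, so whether probe matches go with the regions was not tested.

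Actb held the highest-scoring actin regions of both lists. The gene (ENSMUSG00000029580.7) spans chr5:143664794-143668433 on the minus strand and has 6 exons. Its odd regions scored 66, 60 and 34, which placed them at ranks 5, 8 and 28 of 2112. Its even regions scored 18, 18 and 17, at ranks 11, 11 and 14 of 345. Only 3 protein-coding genes had a higher top score in the odd list and 5 in the even list. Actb was also the only gene with exactly 3 even regions, and 2 genes, Fn1 and Col3a1, had more.

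The odd region with a score of 66 (chr5:143666019-143666272) covered 56.9% of exon 4, the longest coding exon of Actb, and ran 4 bp into the intron behind it. It is printed because it was the highest-scoring actin region, in mRNA sense with exon bases in capitals.
Actb exon 4: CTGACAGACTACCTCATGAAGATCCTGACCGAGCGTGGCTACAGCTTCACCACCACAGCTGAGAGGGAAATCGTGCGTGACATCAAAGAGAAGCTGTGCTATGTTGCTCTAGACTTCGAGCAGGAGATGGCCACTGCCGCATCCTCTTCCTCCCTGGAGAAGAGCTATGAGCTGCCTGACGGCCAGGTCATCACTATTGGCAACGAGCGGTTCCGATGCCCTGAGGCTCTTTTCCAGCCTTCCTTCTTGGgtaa
The even region of exon 4 (chr5:143666167-143666414) scored 18 and overlapped it over 106 bp. The odd region with a score of 60 (chr5:143665357-143665610) held 131 coding bases and 123 bases of the 3′ untranslated part of exon 6, and the even region with a score of 17 (chr5:143665413-143665660) overlapped it over 198 bp. The remaining even region (chr5:143664889-143665136, score 18) lay wholly in the 3′ untranslated part and overlapped no odd region. Exon 3 was the reverse case, with an odd region that scored 34 (chr5:143666918-143667171) and no even region. In all, odd regions covered 38.6% of the 1920 nucleotides of the Actb transcript and even regions 36.7%.

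Acta1, the skeletal muscle actin gene (ENSMUSG00000031972.3, chr8:126415669-126418651, minus strand, 7 exons), held 2 odd regions of nearly equal score. That of exon 3 (chr8:126417046-126417299) scored 36 and was wholly coding, and that of exon 7 (chr8:126415657-126415910) scored 35 and was wholly in the 3′ untranslated part apart from 12 bp beyond the end of the gene. They stood at ranks 26 and 27 of the odd list, directly before the third region of Actb. The only even region (chr8:126415782-126416029, score 11, rank 37 of 345) held 118 coding bases of exon 7 and overlapped the odd region there over 129 bp. The other 5 exons, of 60 to 192 bp, had no region. Acta1 lies within an intron of the predicted gene Gm20388, whose span of 4434882 bp runs on the other strand, and no region of Acta1 touched a Gm20388 exon.

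Acta2, the gene of vascular smooth muscle actin (ENSMUSG00000035783.8, chr19:34315580-34329826, minus strand, 9 exons), held 6 odd regions, each on an exon of its own. Their scores were 10 on exon 2, 7 on exon 3, 15 on exon 6, 13 on exon 7, 17 on exon 8 and 21 on exon 9. Together they covered 60.1% of its 1781-nucleotide transcript, the largest share of the 6 genes. Only 3 protein-coding genes held more odd regions, namely Fn1 (26), Gm20388 (11) and Col3a1 (8), and Acta2 was 1 of 4 with exactly 6. Of the 11 of Gm20388, 10 lay in other protein-coding genes within its span, among them the 2 of Acta1. The exons without a region were exon 1 (47 bp), exon 4 (111 bp) and exon 5 (85 bp), the shortest 3 of the gene. Its even list entry was 1 region with a score of 10 on exon 9 (chr19:34316035-34316282), which overlapped the odd region there (chr19:34315985-34316238) over 204 bp.

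The internal regions of Acta2 were centred on exons that are shorter than a region. Exons 6, 7 and 8 are printed as examples of an exon that lay whole within a region with intron on each side, as exons 2 and 3 of Acta2 and exon 4 of Actc1 did too (exon bases in capitals, intron bases in lower case, mRNA sense). They lie at chr19:34320521-34320774, chr19:34319369-34319622 and chr19:34317775-34318028.
Acta2 exon 6: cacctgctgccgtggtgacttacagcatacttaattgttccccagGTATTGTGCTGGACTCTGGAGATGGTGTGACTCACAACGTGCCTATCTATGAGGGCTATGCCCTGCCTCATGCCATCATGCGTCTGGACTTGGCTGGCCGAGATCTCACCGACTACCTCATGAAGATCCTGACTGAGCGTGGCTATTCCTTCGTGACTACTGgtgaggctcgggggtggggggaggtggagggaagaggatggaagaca
Acta2 exon 7: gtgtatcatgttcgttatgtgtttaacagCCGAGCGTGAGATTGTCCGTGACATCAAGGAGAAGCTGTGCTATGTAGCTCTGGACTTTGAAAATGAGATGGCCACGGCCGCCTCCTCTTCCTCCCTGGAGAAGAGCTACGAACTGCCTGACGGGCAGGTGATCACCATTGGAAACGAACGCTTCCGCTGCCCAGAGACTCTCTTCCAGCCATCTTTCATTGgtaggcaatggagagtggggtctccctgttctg
Acta2 exon 8: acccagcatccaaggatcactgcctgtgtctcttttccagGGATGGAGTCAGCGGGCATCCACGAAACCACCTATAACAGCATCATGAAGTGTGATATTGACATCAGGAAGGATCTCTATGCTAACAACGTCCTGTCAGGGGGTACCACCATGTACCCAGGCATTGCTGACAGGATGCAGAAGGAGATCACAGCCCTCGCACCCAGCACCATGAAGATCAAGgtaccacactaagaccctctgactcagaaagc
Exon bases made up 162 of 254 in the regions of Acta2 exon 6 and Actc1 exon 4, 192 in that of exon 7 and 182 in that of exon 8. The midpoint of each of these 4 regions lay 1 to 4 bp from the centre of its exon. Over all 7 odd actin regions on an internal exon shorter than 254 bp, that distance ran from 1 to 9 bp, with a median of 4 bp. Over the 241 such odd regions of all protein-coding genes the median was 8 bp, 58.1% lay within 10 bp, and the largest distance was 69 bp. No actin region had its midpoint in an intron.

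**Figure D2:**
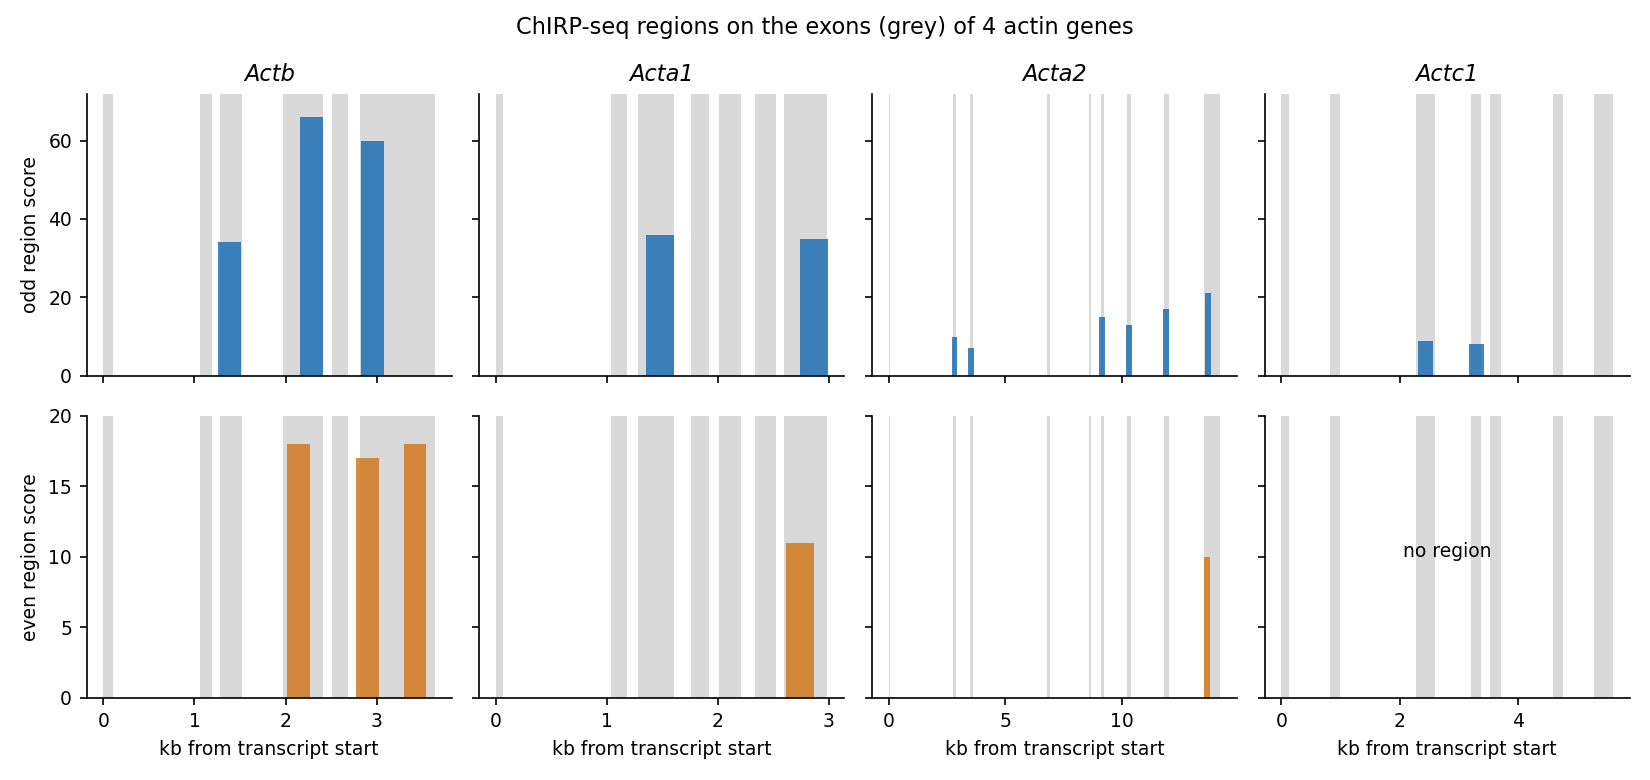
Odd (upper row) and even (lower row) regions of the 4 actin genes that held any, as bars of the region's width at its distance in kb from the transcript start, with the score as height and exons as grey bands. Each bar stands on a band, the first band of each gene is empty, and Actc1 has no even region.

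Actc1, the cardiac actin gene (ENSMUSG00000068614.7, chr2:113873018-113879284, minus strand, 7 exons), held 2 odd regions with lower scores than any region of Actb or Acta1. The region of exon 3 (chr2:113876058-113876311) scored 9 at rank 413 of 2112, and that of exon 4 scored 8 at rank 497. Both were wholly coding apart from the intron bases around exon 4. Actc1 had no even region, and the nearest lay 4059449 bp away, at Thbs1. Unlike in the other 3 genes, its last exon held no region, although that exon, with 328 bp, is the longest of the gene. A lincRNA, RP23-230H3.2, runs across Actc1 on the other strand without an exon inside it.

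The order of the genes by top odd score was Actb (66), Acta1 (36), Acta2 (21) and Actc1 (9). By top even score it was Actb (18), Acta1 (11) and Acta2 (10), with Actc1 absent. The order by number of odd regions was another, with Acta2 at 6, Actb at 3, and Acta1 and Actc1 at 2 each. With 1 library per pool there is no replicate spread, so whether neighbours in these orders differ was not tested.

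**Figure D3:**
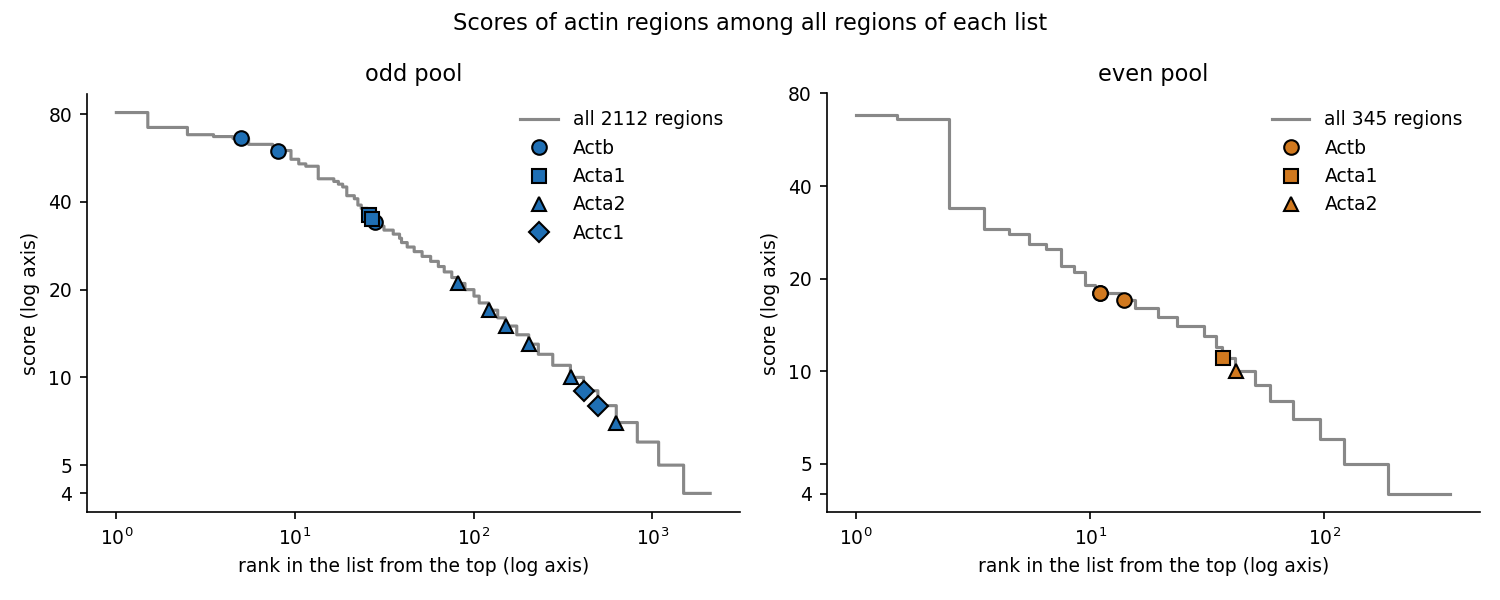
Score against rank from the top for all regions of the odd list (left, 2112 regions) and the even list (right, 345 regions), both axes logarithmic, with the regions of the actin genes as symbols. In the odd list the regions run from rank 5 (Actb, score 66) to rank 630 (Acta2 exon 3, score 7), and in the even list from rank 11 to rank 42.

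Actg1, the nonmuscle γ-actin gene (ENSMUSG00000062825.8, chr11:120207004-120209856, minus strand), had no region of either pool. The nearest odd region lay 139779 bp away at Mrpl12, with the lowest score of 4, and the nearest even region 539769 bp away at Rptor. Actg2, the enteric smooth muscle actin gene (ENSMUSG00000059430.8, chr6:83462899-83486259, minus strand), had none either. Its nearest odd region, at Dguok with a score of 4, lay 6111 bp away and was the only region of either list that lay within 20000 bp of a member without touching it. At the other side of the limit, 17 of the 18 actin regions lay wholly inside the gene span, and the smallest overlap was 242 bp.

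Only uniquely mapped reads had been kept, and the actin genes differ in how much of their sequence is found at 1 place. Of the 31-base words (31-mers) in the exons, 99.2% occurred once in mm9 for Actg2, 99.2% for Actc1, 98.0% for Acta2, 94.9% for Acta1, 61.6% for Actb and 2.65% for Actg1. No coding 31-mer of Actg1 occurred only once, and its median exon 31-mer occurred 5 times. Only exon 1 of Actg1 held unique 31-mers, 53.4% of that exon. Actg1 and Actg2, the genes without a region, thus stood at opposite ends, and Actb had the top scores with a smaller unique share than the 3 other genes with regions. The part of sequence copies in the absence of a region at Actg1 was not tested, and read length is not given in the sources used here. At the regions themselves the median 31-mer occurred once in all 13 odd regions, against more than once in 16.7% of the whole odd list. The share of 31-mers that occur once was lower in the actin regions, with a median of 96.0% against 100.0% over the whole odd list. It was 58.5, 65.6 and 55.4% in the 3 odd regions of Actb and at least 77.7% in the other odd actin regions. For the even list the medians were 62.4% and 100.0%. In the even list, the region of Actb exon 4 had a median of 2 copies and the other 4 a median of 1.

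**Figure D4:**
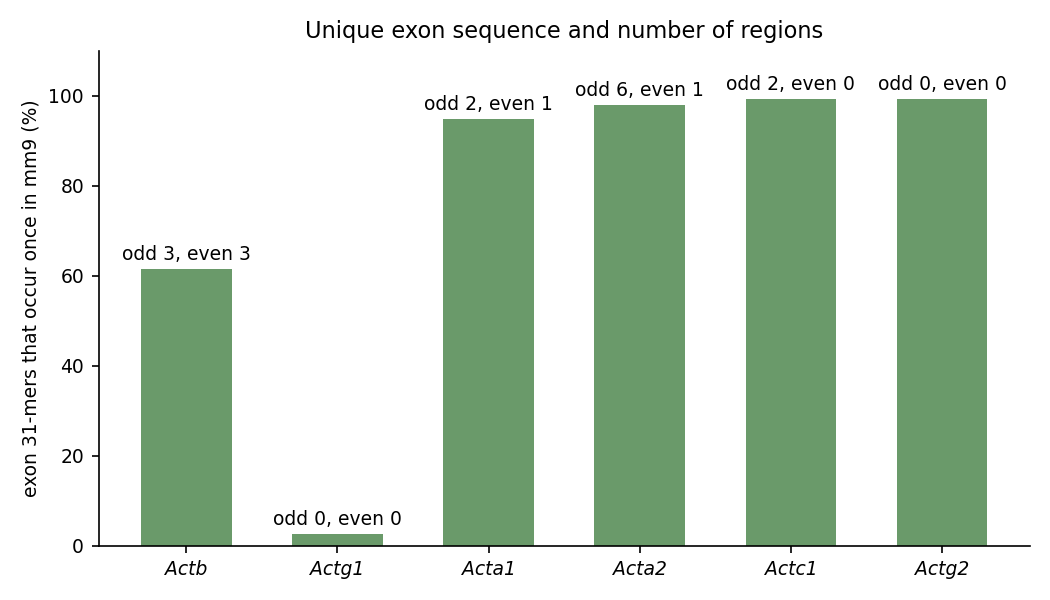
Percent of the exon 31-mers of each actin gene that occur once in mm9, as bars from 0, with the number of odd and even regions written above each bar. Actg1, at 2.65%, and Actg2, at 99.2%, both carry no region.

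Copies of the nonmuscle actin transcripts lay outside the members. A search of mm9 with the 6 transcripts found 32 loci with at least 300 bp at 80% identity or more, of which 21 were closest to Actg1, 11 to Actb and none to the 4 muscle actins. Of the copies of Actg1, 7 had at least 95% identity, up to 99.7%, whereas the closest copy of Actb had 90.6%. Of these 32 loci, 2 held a region. Gm15725, an Actb-like pseudogene within the span of Lrrc58, held an odd region with a score of 48 (chr16:37883446-37883699) and an even region with a score of 8 (chr16:37883461-37883708). The odd region matched the Actb transcript at 95.4% identity over 259 aligned positions and the even region at 96.7% over 244, each across 1 exon junction of Actb. Gm12715, an Actg1-like pseudogene within Gm10963, held an odd region with a score of 9 (chr4:103235884-103236137), of which 208 bp were identical to Actg1 across 2 of its exon junctions. By score, the Gm15725 region stood above the third region of Actb and above both of Acta1.

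All 18 actin regions had their midpoint on an exon and touched only that exon. For the odd list this was 13 of 13 (100%, 95% Wilson interval 77.2 to 100%) against 79.5% of all odd regions (77.8 to 81.2%). For the even list it was 5 of 5 (56.6 to 100%) against 57.4% (52.1 to 62.5%). These intervals cover counting error only, and regions of 1 gene are not independent. The shares of all regions were taken whether or not a region lay in a gene. The actin regions were picked by overlap with a gene, so the shares are not like for like.

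Within the exons, the odd regions of the actins were spread along the coding sequence. Of the 13, 11 had their midpoint in coding sequence (84.6%) and 3 lay on a last exon (23.1%, 95% Wilson interval 8.18 to 50.3%). Of the 1475 odd regions on exons of all protein-coding genes with at least 3 exons, 37.5% were coding and 70.1% lay on the last exon. The interval covers counting error only, 6 of the 13 regions are of Acta2, and regions of 1 gene are not independent. The actin genes were also chosen by these regions, and a gene has only 1 last exon, so the shares are not like for like. The even regions were placed otherwise, with 4 of 5 on a last exon (80%) and 2 of 5 coding (40.0%), against 69.5% and 34.7% of 167. No actin gene had a region on its first exon in either list.

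Because actin genes share many of their exon junctions, the same piece of coding sequence can be compared between them. The match is not complete, since Actb and Actg1 have an undivided exon of 439 bp where the muscle actins have junctions. The last coding piece, 1 to 141 nucleotides back from the last coding base, lies on the last exon of all 6 genes. That exon held odd and even regions in Actb, Acta1 and Acta2 and neither in the other 3 genes. The odd region of Acta1 there held no coding bases. The coding piece before that last one, a 182 bp exon in all 6 genes, held an odd region in Acta2 alone (score 17). Among the 4 muscle actins, the 192 bp exon did so in Acta2 alone as well (score 13). In Actb this piece lies in the 439 bp exon, and the odd region with a score of 66, at coding positions 324 to 573, covered it. The 162 bp exon of the muscle actins before that held an odd region in Acta2 (score 15) and Actc1 (score 8) but in neither Acta1 nor Actg2. Acta1 and Actc1 have an undivided exon of 325 bp where Acta2 and Actg2 have 3 exons, and both held an odd region on it, with scores of 36 and 9. Of those 3 exons, Acta2 held an odd region on that of 129 bp (score 7), and Actg2 held none. Actb held an odd region on its 240 bp exon in the same stretch (score 34), and Actg1 held none. Coding nucleotides 874 to 931 back from the last coding base lay in odd regions of all 4 genes with regions. Thus Acta2 held regions on exons of 162, 182 and 192 bp whose counterparts of equal length in Acta1 held none. The 182 bp counterpart in Actb held none either, and both genes had higher scores. Unique sequence differed between these exons. Of the 31-mers of that Actb exon, 36.2% occurred once in mm9, against 82.9% for the 182 bp exon of Acta2. The Acta1 counterparts stood at 100%. No coding 31-mer of Actg1 occurred once, so its empty exons are not like-for-like absences. The part of sequence copies in these differences was not tested.

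Within Actb, Acta1 and Acta2 the exons with an odd region were all longer than those without. The exons with a region measured 240 to 827 bp in Actb, 325 to 384 bp in Acta1 and 129 to 721 bp in Acta2, and those without 103 to 182 bp, 60 to 192 bp and 47 to 111 bp. In Actc1 they overlapped, with 162 to 325 bp against 126 to 328 bp. Over the 29 exons of the 4 genes, 0 of 3 exons under 100 bp, 6 of 18 of 100 to 200 bp, 4 of 5 of 200 to 400 bp and 3 of 3 of at least 400 bp held an odd region. Over all protein-coding genes with an odd region and at least 3 exons these shares were 0.0405%, 1.99%, 9.71% and 55.0%. These shares are not like for like. Of the 1445 protein-coding genes with an odd region, 1162 held exactly 1, whereas the 4 actin genes, chosen by their regions, held 2 to 6 each.

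The 4 actin loci shared by both pools, of 147 shared loci in all, were 2 in Actb (chr5:143665413-143665610 and chr5:143666167-143666272), 1 in Acta1 (chr8:126415782-126415910) and 1 in Acta2 (chr19:34316035-34316238). Thus 4 of the 5 even actin regions overlapped an odd region, as did 147 of all 345 even regions (42.6%). At 3 of the 4 shared loci, those on last exons, the overlap was 129 to 204 bp.

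The genes most like each actin gene were sought by 4 quantities, the number of odd and of even regions and the top score in each list, as the summed difference of log2(value + 1). For Actb they were Sparc (distance 1.40), Bgn (1.75) and Vim (1.84). Col1a2 (0.49), AF085738 (0.50) and Gnas (0.50) came closest to Acta1. Nid1 (0.86), Itgb1 (0.94) and Zyx (1.16) came closest to Acta2. Arf4, Calm3 and Cav1 had the same 4 values as Actc1, as did 7 further genes. These are likenesses of regions in 2 libraries and nothing more.

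Genes that handle actin were also found in the lists. Of 15 genes for monomer binding and filament turnover, 9 held an odd and 3 an even region, led by Tmsb4x, which sequesters monomers (odd 56, even 14), Pfn1, profilin, which feeds them to filament ends (28 and 7), and Cfl1, cofilin, which severs filaments (17 and 8). Of 22 capping, bundling and cross-linking genes, 14 held an odd and 4 an even region, with top odd scores at Zyx (27), the cross-linker Flna (14) and Msn (14), and top even scores at Zyx (10), Marcks (5), and Capza2 and Msn (4 each). Of 15 tropomyosins, calponins and other side binders, 9 held an odd and 4 an even region, led by Tpm4 (30 and 8), Cnn3 (18 and 6) and Tpm1 (16 and 6). These shares, 60.0%, 63.6% and 60.0% for the odd pool, were close to the 66.7% of the actins and stood beside 6.46% of all protein-coding genes. For the even pool they were 20.0%, 18.2% and 26.7%, beside 50.0% of the actins and 0.996% of all genes.

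Nucleation and branching genes held fewer than these lists, with 6 of 23 in the odd list (26.1%) and 0 in the even list. Over all protein-coding genes the shares were 6.46% and 0.996%. Their top odd scores were 9 at Arpc2 and 6 at Arpc1b, Actr2 and Arpc4, all subunits of the Arp2/3 complex, which starts branches. Of 14 actin-related proteins other than Actr2 and Actr3, which share the actin fold and include subunits of dynactin and of chromatin remodelling complexes, none held a region of either pool. Actr2 and Actr3, the actin-related subunits of Arp2/3, were counted with nucleation and held an odd region each, with scores of 6 and 4. Of 6 genes of the SRF and MRTF group, the transcription factors that respond to free actin and their partners, only Fhl1 held an odd region (score 14). Lists of 14 and 6 genes are too short for 0 or 1 gene to be told from the 6.46% of all genes. Of the other filament systems, 5 of 16 tubulins held an odd (31.2%) and 3 an even region (18.8%). Tubb5 (31 and 10), Tubb6 (19 and 5) and Tuba1a (odd 12) were at the top, and Tubb2a was in the even list alone (4). Of 11 intermediate filament genes, 3 held both (27.3%), namely Vim (53 and 10), Des (45 and 8) and Lmna (12 and 4). These counts and those of the actins come from lists chosen with earlier results of these data known, and no difference between lists was tested.

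**Figure D5:**
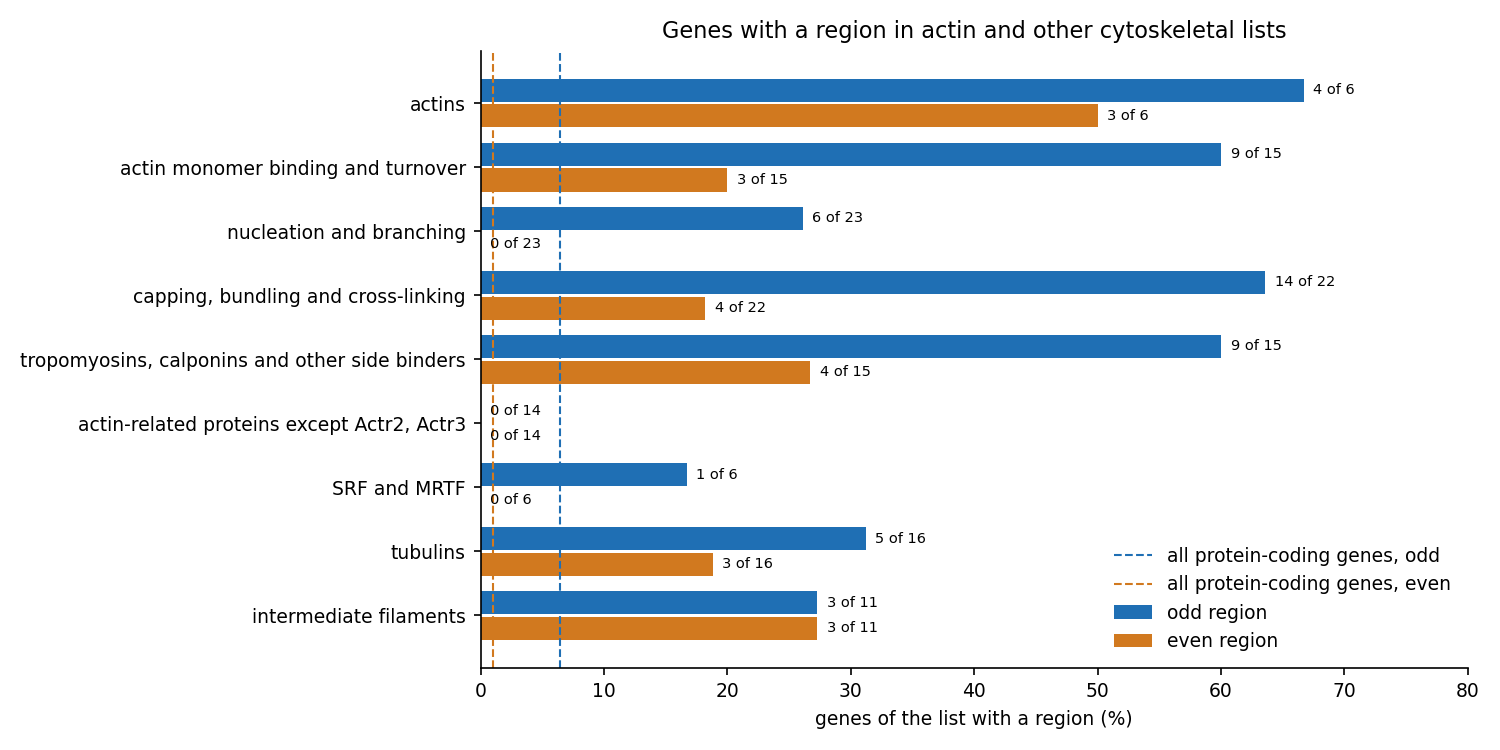
Percent of the genes of each list that held an odd (blue) or even (orange) region, with counts at the bar ends and dashed lines at the 6.46% and 0.996% of all protein-coding genes. The actins lead both pools, with 4 of 6 and 3 of 6 genes, and the 14 actin-related proteins other than Actr2 and Actr3, which are counted under nucleation and hold odd regions, show 0 in each.

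The labelled cell type was looked up at its markers, although a region at a marker is not a measure of its expression. Of 8 satellite cell and myoblast markers, 4 held an odd region (Des, Sdc4, Itga7 and Vcam1) and 2 an even region, while Pax7, Myod1, Myf5 and Cdh15 held none. Over all protein-coding genes the shares were 6.46% and 0.996%. Of 5 annotated markers of differentiated muscle, 4 held an odd region, Myog and Tmem8c (score 14 each), Myh3 (11) and Tnnt3 (4). Ckm held none, and no marker of this list held an even region. Of 5 fibroblast markers, 3 held an odd and 2 an even region. Col3a1 scored 53 and 13, Col1a1 7 and 4, and Dcn 12 in the odd list alone, while Pdgfra and Thy1 held none. Acta2 was the only smooth muscle and pericyte marker of 5 with a region, and Myh11, Cnn1, Rgs5 and Cspg4 held none. Endothelial and immune markers, 3 of each, held none. The part of other cell types in the regions of Acta2 and Actc1 was not tested.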

How the data were processed

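PAM ChIRP-seq gave 1 library for each of 2 probe pools, odd and even, from ASCs. Per the paper's methods and the labels, reads that mapped uniquely to mm9 with Bowtie2 were kept and peaks called per pool with MACS2, whose versions are not given in the sources used here. For each pool the deposited file gives regions and a score, used here as it stands. The lists hold no read counts, so the depth is unknown.

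Starts were read as 0-based and are printed 1-based. Regions were assigned to genes by an overlap of at least 1 bp with the span in GENCODE M1, and to exons by their midpoint, with exon numbers from the longest protein-coding transcript. Untranslated parts include the stop codon. Shared loci are overlaps of at least 1 bp between the pools, counted once per pair of an odd and an even region. Copies of 31-mers were counted over both strands of mm9. Actin-like loci were found with megablast (BLAST 2.17.0, at least 80% identity and 300 bp, hits within 3000 bp joined), and matches of regions to actin transcripts over at least 50 bp. Python 3.11.15, pandas 2.3.3, SciPy 1.17.1 and Biopython 1.88 were used. The step for shared loci was tested on simulated data with planted regions. The gene and exon of a planted region were fixed by where it was placed, so those checks could not test the assignment.

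Named are the 6 actin genes, the up to 3 genes per list and pool with the highest score, the 3 genes most like each member with a region, and actin pseudogenes with a region. The genes that bound a rank or lie nearest to a member, and those that overlap one, were named after their values were seen. Of the lists, Brk1 and Mymk have no gene of that name in the annotation, and Mymk is there as Tmem8c. The members and lists were chosen with earlier results of these data known, and no test was made, since the regions chose the members and there was no replicate library. The sequence of some stretches is not reported here.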

Additional observations from a re-analysis of the deposited data

How the results depend on the processing

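The numbers of actin regions and of actin genes with a region were recomputed under other rules of overlap, span extensions of 1000 and 20000 bp, exons only, higher scores only, and 1-based starts. Regions whose median 31-mer occurs once were added after seeing the data. All these stayed within 1.5 times the values given, from 13 to 14 odd and 4 to 5 even regions, and the extension by 20000 bp raised the genes with an odd region from 4 to 5 through the Dguok region near Actg2. Of 57 alternatives, 51 left the value the same and 6 moved it, but many of the 51 could not have moved it. The lowest actin scores were 7 (odd) and 10 (even). Cuts above 4 or at the list medians of 6 and 5 therefore removed no actin region. With a smallest overlap of 242 bp, a rule asking for the midpoint or 50% of a region inside the gene could not lower the counts. The tally is thus no measure of robustness. Extending regions by 1000 bp gave 13 overlapping pairs of an odd and an even region in place of 4, with 9 in Actb, 2 in Acta1 and 2 in Acta2. The 9 of Actb are all pairs of its 3 odd and 3 even regions, so they are not separate loci. The even pool gave 80% on the last exon in place of 23.1%. Keeping only the top region of each gene moved the median score to 28.5 (odd) and 11 (even), and leaving out the gene with the most regions, Acta2 for odd and Actb for even, to 35 and 10.5. The cause was not tested beyond these constructions.

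No paired analysis was possible because there is only 1 library of each pool. The score's unit and the depth are unknown, so the absence of a region at Actg1, Actg2 or, in the even list, Actc1 says only that none was listed.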
